A study of Schmidtea mediterranea with 36 samples.

Results

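A set of 200 transcripts of the planarian Schmidtea mediterranea was taken as shared by the sorted cell populations X1 and X2 and low in the population Xins, out of 26558 transcripts measured and 4461 that could have been chosen. Each of 36 libraries was rescaled to a sum of 1000000, the scale of transcript abundance abbreviated TPM, and log2(TPM + 1) was averaged over the 12 libraries of each population. A transcript could be chosen when its mean was at least 10 TPM in X1 and in X2 and its mean log2 values in X1 and X2 lay less than 1 apart. The 200 with the largest gap between the lower of the X1 and X2 means and the Xins mean, called the Xins deficit below, were kept. These levels chose the members, so the differences between populations are a description with no test. Changes during starvation were not used in the choice and were tested.

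Asexual planarians that had been fed veal liver were starved for 1, 7 or 30 days (1dS, 7dS and 30dS), animals of like size were dissociated, and cells were sorted by a Hoechst dye of DNA and the cytoplasmic dye calcein-AM. The X1 gate takes stem cells in S phase and G2/M, the X2 gate takes stem cells in G0/G1 and the progeny of stem cells, and the Xins gate takes differentiated cells. RNA-seq of 4 libraries in each of the 9 groups was available, with 1dS as the reference time in every population. No genotype or drug differed between the groups, and the gates are defined by DNA content and dye uptake, so that X2 and Xins are mixtures of cell types.

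Neoblasts, the stem cells of planarians, divide throughout adult life and supply the tissues with new cells. After division a neoblast either re-enters the cell cycle or begins to differentiate, and cells at that branch fall into the X2 gate. Dividing cells must make and fold new protein, which requires charged tRNAs from the aminoacyl-tRNA synthetases and chaperones in the cytosol and in mitochondria.

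The deposited values of a library summed to between 638389 and 1935392, and 1733 to 10378 transcripts per library were listed at 0. The cell cycle kinase cdk1 was the one stem cell marker that could be tied to a transcript, and its level was 54.7 ± 13.9 TPM in X1, 4.43 ± 2.54 TPM in X2 and 0.12 ± 0.09 TPM in Xins (SD, n = 12 libraries each). It is not a member, because its X2 mean lay under 10 TPM and its X1 and X2 levels were too far apart. Replicates 1 and 3 of X2 at 1dS had the most transcripts at 0, 10378 and 7479. Replicates 1 and 3 of Xins at 1dS held the least of the 200 transcripts that are highest in Xins alone, 14.2% and 15.2% of the library against 23.0% and 23.7% in replicates 2 and 4. Medians and counts that rest on these libraries are given with and without them, but changes of single members only in part. Nothing states that the 4 libraries of a group came from separate animals beyond the pooling of planarians for each replicate, so that p-values measure the spread between these libraries, which may be technical.

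Within the set the Xins deficit ran from 5.10 down to 1.84 on the log2 scale, with a median of 2.09, and the median over all 4461 eligible transcripts was 0.21. A deficit of 3 or more was held by 25 members, and 80 members had one below 2. Transcripts are named by their number, so that comp4808 stands for dresden_comp4808_c0_seq1, and comp155 and comp1355 are the 2 members with the suffix c1_seq1. The 200 members came from 200 different assembly components, so no gene entered the set as several isoforms of 1 component. The last members inside the choice were comp1710, comp105 and comp15514, with a deficit of 1.84 each, and the first transcripts outside were comp204, comp211 and comp2709, with 1.83 each. The deficit thus fell off without a gap at the edge of the set.

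**Figure D1:**
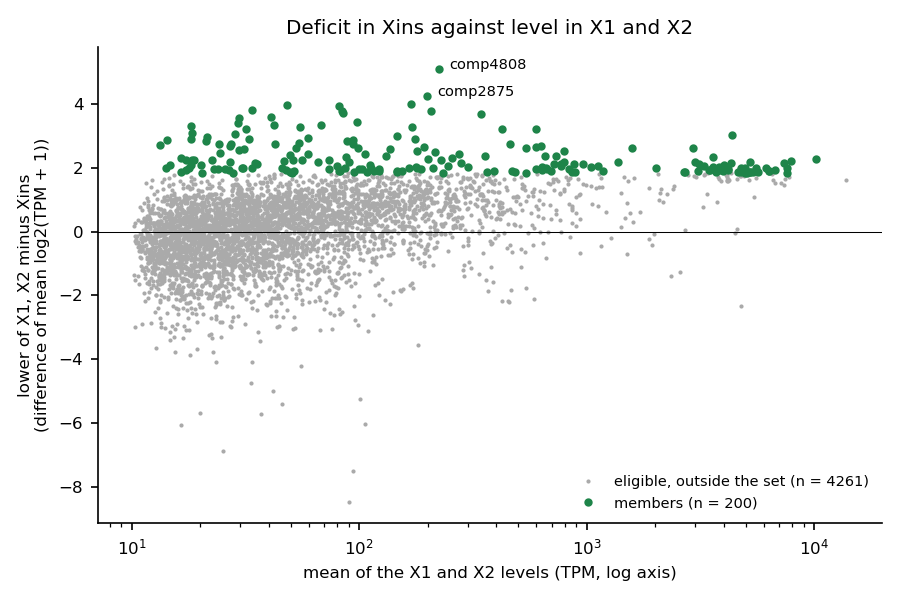
Xins deficit (lower of the X1 and X2 mean log2(TPM + 1) minus the Xins mean, y axis) against the mean of the X1 and X2 levels in TPM (x axis, log scale) for the 4461 eligible transcripts, with the 200 members in green. Members of 1000 TPM and over lie between 1.84 and 3.02, and the larger deficits, up to 5.10, belong to less abundant members.

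The member with the largest deficit, comp4808, lay from 56.7 to 737 TPM (median 165) in X1, from 72.4 to 325 TPM (median 169) in X2 and from 1.24 to 10.3 TPM (median 3.52) in Xins over the 12 libraries of each population. Next came comp2875, which lay from 59.6 to 474 TPM (median 229) in X1, from 58.2 to 311 TPM (median 177) in X2 and from 3.61 to 13.9 TPM (median 6.41) in Xins. For both transcripts the lowest X1 or X2 library was above the highest Xins library. For comp920 the levels lay from 10.9 to 359 TPM (median 154) in X1, from 56.6 to 356 TPM (median 180.3) in X2 and from 0.944 to 28.2 TPM (median 6.23) in Xins, so that its lowest X1 library fell inside the Xins range. In the case of comp6020, listed by the study under protein autophosphorylation, the levels ran from 11.1 to 69.8 TPM (median 25.1) in X1, from 24.8 to 128 TPM (median 60.1) in X2 and from 0.489 to 1.54 TPM (median 0.892) in Xins, without overlap. The fifth, comp1610, ran from 23.7 to 349 TPM (median 48.1) in X1, from 14.7 to 227 TPM (median 39.96) in X2 and from 0.511 to 14.8 TPM (median 1.39) in Xins, and its highest Xins library passed its lowest X2 library by a narrow margin.

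Taken library by library, 154 of the 200 members were higher in each of the 24 X1 and X2 libraries than in each of the 12 Xins libraries, as were 5.0% of the 17034 transcripts compared. Within a single time, 181 members at 1dS, 178 at 7dS and 187 at 30dS had every X1 and X2 library above every Xins library, where the share over all transcripts was 10.6%, 9.17% and 9.86%. The choice of the members fixed this direction, so nothing is read from these counts. Low in Xins is meant relative to X1 and X2: 72 members had an Xins mean of 100 TPM or more, 67 one under 10 TPM and 7 one under 1 TPM, and no member was listed at 0 in any library. The 3 lowest in Xins were comp11860, comp11378 and comp19710. In bulk samples of sorted cells, fewer cells of a type and less RNA per cell cannot be told apart.

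Summed over its members, the set made up 23.9% to 29.5% of an X1 library (mean 26.6 ± 1.95, SD, n = 12), 21.2% to 27.2% of an X2 library (23.9 ± 2.18) and 4.30% to 9.18% of an Xins library (6.0 ± 1.49). The Xins values did not reach the X1 or X2 values in any library. The highest of them came from Xins 1dS replicate 1, with 9.18%, and replicate 3, with 7.82%, while replicates 2 and 4 of that group had 5.58% and 5.29%. Without the 10 most abundant members the mean shares were 19.3% in X1, 16.9% in X2 and 4.20% in Xins. The share in X1 was higher than that in X2 on average, but the ranges of both populations overlapped.

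**Figure D2:**
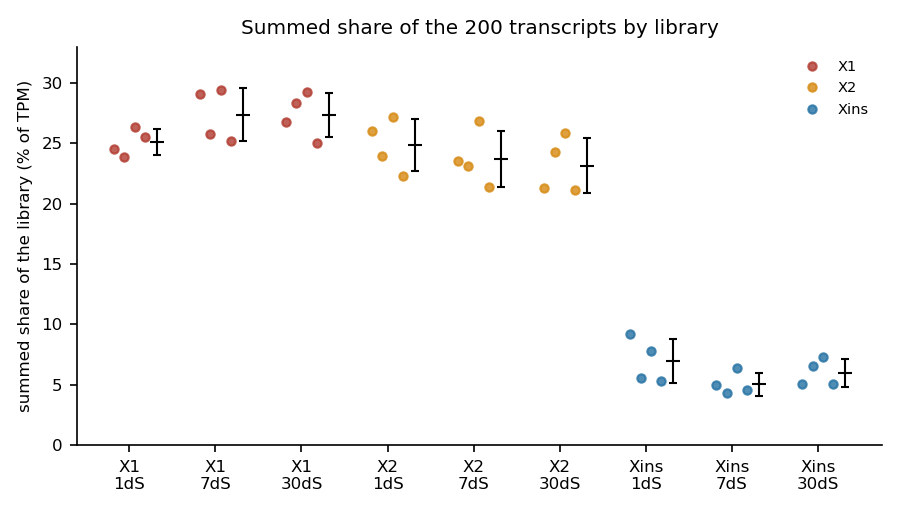
Summed share of the 200 transcripts in each library as a percentage of all TPM (y axis) in the 9 groups (x axis), 4 points per group, with the mean and SD in black beside them. X1 libraries lie between 23.9% and 29.5%, X2 libraries between 21.2% and 27.2%, and Xins libraries between 4.30% and 9.18%, the highest being Xins 1dS replicate 1.

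The set joined transcripts of very different abundance. Members whose mean over X1 and X2 was at least 1000 TPM numbered 51, or 25.5% of the set, whereas such transcripts were 2.91% of those eligible. They carried 88.2% of the summed TPM of the members, with a median of 4220 TPM in X1, 3980 TPM in X2 and 1051 TPM in Xins. Their deficits lay close together, between 1.84 and 3.02 with an SD of 0.23. The 67 members between 100 and 1000 TPM had medians of 318 TPM in X1, 221 TPM in X2 and 42.1 TPM in Xins, and their deficits ranged from 1.84 to 5.10 with an SD of 0.64. The 82 members under 100 TPM had medians of 35.8, 36.5 and 4.42 TPM in the same order. The choice cut all deficits off at 1.84, and those of the most abundant members had a median of 1.96, near that edge. These members were 51 of 130 eligible transcripts of that abundance. The cut itself narrows their range, so no shared size of deficit is read from it. The largest deficits were those of members at 10 to 1000 TPM.

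Of the 5 most abundant members, comp155 lay from 7504 to 13852 TPM (median 10890.3) in X1, from 6756 to 13182 TPM (median 9818) in X2 and from 1169 to 3634 TPM (median 2089) in Xins. For comp140 the levels ran from 4329.7 to 12077 TPM (median 8179.9) in X1, from 3953 to 13064 TPM (median 7885) in X2 and from 769.8 to 4804 TPM (median 1541) in Xins. The others were comp237, comp96 and comp105, whose X1 medians were 7020, 6484 and 7799 TPM and whose Xins medians were 1540, 2047 and 1900.2 TPM. The 3 members with the highest Xins means, comp155, comp140 and comp105, were thus also among the most abundant in X1 and X2. None of these 5 carries a gene name in the sources used here.

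Although the rule limited the gap between X1 and X2, the members leaned to X1. The mean log2 level was higher in X1 for 152 members and higher in X2 for 48, with a median X1 minus X2 difference of 0.28. Members of 1000 TPM and over were nearly level, with a median difference of 0.08 and 40 of 51 within 0.25, whereas members of 100 to 1000 TPM had a median of 0.50 and were higher in X1 in 60 of 67 cases. By time, the median difference was 0.20 at 1dS, 0.28 at 7dS and 0.30 at 30dS. X1 lay above X2 without overlap for 14 members at 1dS, 30 at 7dS and 42 at 30dS, beside 6.57%, 8.23% and 8.38% of all transcripts, and X2 above X1 for 8, 5 and 8 members, beside 13.2%, 27.1% and 29.6%.

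Only 10 of the 200 members have an annotation in the sources used here, 3 with a gene symbol and 7 with a term alone, so that most of the set is known by number. The 3 symbols belong to the mitochondrial chaperones HSPD1 (comp141) and HSPA9 (comp424) and to the seryl-tRNA synthetase SARS (comp2956). HSPD1, which forms the folding chamber of the mitochondrial matrix, lay from 996 to 2821 TPM (median 1916) in X1, from 542 to 2535 TPM (median 1192) in X2 and from 83.96 to 389.7 TPM (median 177) in Xins. HSPA9, the mitochondrial Hsp70, which helps to import and fold matrix proteins, lay from 435 to 1496 TPM (median 908) in X1, from 173 to 1117 TPM (median 505) in X2 and from 36.5 to 242 TPM (median 87.8) in Xins. SARS, which charges the serine tRNAs of the cytosol, lay from 37.9 to 174 TPM (median 74.6) in X1, from 24.6 to 133 TPM (median 67.1) in X2 and from 5.52 to 32.9 TPM (median 15.4) in Xins. HSPD1 was higher in each X1 and X2 library than in any Xins library, whereas for HSPA9 and SARS the highest Xins library exceeded the lowest X2 library but not the lowest X1 library.

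Other genes of the same pathways were mostly outside the set, as were most eligible transcripts, of which 200 of 4461 were members. Counts of 0 or 1 in lists of this size are near that share, so no lack of members is read from them. The median deficit over all eligible transcripts, 0.21, was below the list medians that follow. Of 34 listed transcripts for tRNA aminoacylation, 25 were eligible and 1, SARS, was a member, with a median deficit over the list of 0.74. Lysyl-tRNA synthetase, KARS, came close with a deficit of 1.73, and the mitochondrial seryl-tRNA synthetase SARS2 had 0.72. No member came from the 40 listed transcripts of the translation complex, of which 30 were eligible. Their median deficit was 0.82, and the elongation factor subunits EEF1G (comp308) and EEF1B2 (comp206) came close to the set with 1.81 and 1.77. The 8 subunits of TRiC, the cytosolic chaperonin that folds actin and tubulin, were all lower in Xins but by less, with deficits from 0.39 to 1.66 and a median of 1.06. Of 5 transcripts listed for HSPA8, the constitutive cytosolic Hsp70, comp1332 and comp1459 had deficits of 3.83 and 3.80 but were too unequal between X1 and X2 to be eligible, comp2221 and comp320 were eligible with 1.02 and 0.10, and comp19414 lay under 10 TPM. The lists were taken from the study, which chose those on protein folding and translation from changes in these samples or after cct3A RNAi.

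Starvation was then examined within each population on the deposited normalised TPM values, with the linear model of limma on log2(value + 1) and a Benjamini-Hochberg adjusted p below 0.1 over all transcripts tested. In X1, 17 members rose and 18 fell at 7dS against 1dS (either direction 13.7% of all transcripts, 6.77% higher and 6.92% lower), and 20 rose and 10 fell at 30dS (9.79%, 5.43% and 4.36%). In X2, 9 rose and 34 fell at 7dS (16.4%, 9.56% and 6.79%), and 10 rose and 39 fell at 30dS (20.7%, 12.5% and 8.19%). In Xins, where 195 members passed the filter on low values, 0 rose and 29 fell at 7dS (5.11%, 2.05% and 3.06%), and 1 rose and 24 fell at 30dS (7.16%, 3.31% and 3.85%). Over all transcripts rises were about as frequent as falls in X1, more frequent in X2 and less frequent in Xins, whereas the calls among members were mixed in X1 and mostly falls in X2 and Xins. Both times were set against the same 1dS libraries.

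The medians of the members were below 0 in all 6 comparisons with 1dS, also in X1 at 30dS, where rises outnumbered falls among the calls. The median log2 change of the members was -0.12 at 7dS and -0.05 at 30dS in X1, -0.40 and -0.48 in X2, and -0.59 and -0.41 in Xins, while the medians over all transcripts tested lay between -0.07 and 0.05. In X2, 156 of 200 members were below 0 at 7dS and 159 at 30dS, and in Xins 168 and 156 of 195. Between 7dS and 30dS no member was called by limma in any population, with background shares of 0.00754% in X1, 0.127% in X2 (0.120% higher and 0.00667% lower) and 0.141% in Xins (0.124% higher and 0.0177% lower). At an unadjusted p below 0.05, 4 members were higher and 1 lower at 30dS in X1, 2 and 1 in X2, and 3 and 1 in Xins.

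These falls depended on the scale and on the 1dS libraries. After rescaling every library to the same sum, the median over all transcripts moved to 0.36 and 0.39 in X2 and to 0.38 and 0.20 in Xins, and the split of calls among members shifted. In X2 it became 18 rises and 20 falls at 7dS (9.80% and 2.36% of all transcripts), then 21 and 25 at 30dS (15.1% and 2.70%). In Xins it became 3 rises and 8 falls (4.20% and 0.594%), then 5 and 8 (4.89% and 0.935%). In X1 it became 21 rises and 7 falls (3.71% and 2.10%), then 19 and 5 (2.93% and 1.70%). Relative to that shift of all transcripts the members were still lower in X2, at medians of 0.012 and -0.023, and in Xins, at -0.21 and -0.16. In X1 their medians turned positive, to 0.09 and 0.08, beside 0.20 and 0.04 over all transcripts. When replicates 1 and 3 of X2 at 1dS were left out, the medians in X2 on the deposited scale were -0.12 and -0.16, 3 members rose and 6 fell at 7dS (1.5% and 1.67%) and 6 and 13 at 30dS (4.39% and 3.13%). Likewise, with replicates 1 and 3 of Xins at 1dS left out, the medians in Xins were -0.12 and 0.07, 0 rose and 6 fell at 7dS (0.163% and 0.601%) and 2 and 10 at 30dS (1.04% and 1.59%). The falls in X2 and Xins were smaller without these libraries. The Xins median at 30dS changed sign, with 106 of 191 members above 0. These libraries were picked after seeing the data and held the largest shares of the members at 1dS in their populations. The shares were 26.1% and 27.2% in X2 against 24.0% and 22.3%, and 9.18% and 7.82% in Xins against 5.58% and 5.29%. Leaving them out lowers the 1dS level of the members, so smaller falls were in part built into this choice. Of the 36 X2 changes called for members named below, 18 no longer passed without replicates 1 and 3 of X2 at 1dS. In Xins 9 of 22 no longer passed without replicates 1 and 3 of Xins at 1dS. With the replicate number as a block, 4 members rose and 98 fell in Xins at 7dS (14.1% and 14.1%). Deviations of same-numbered libraries from their group means correlated there at 0.45 to 0.71, but only 1 of the 4 numbers matched itself best.

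**Figure D3:**
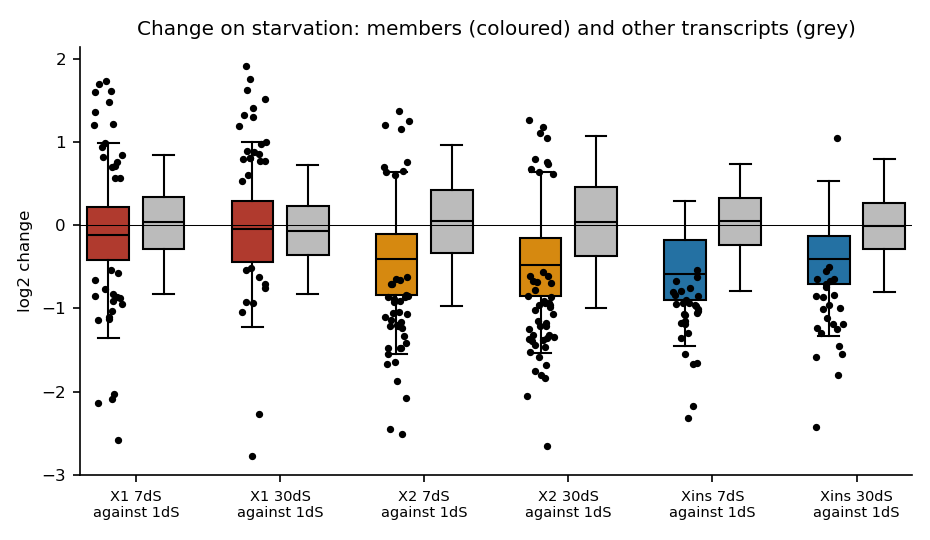
Log2 change at 7dS and 30dS against 1dS on the deposited scale (y axis) in X1, X2 and Xins (x axis) for members in colour and other transcripts in grey. Boxes span the quartiles with the median as a line, whiskers the 5th and 95th percentiles, and black dots are members past the threshold, 35 and 30 in X1, 43 and 49 in X2, and 29 and 25 in Xins. The coloured medians in X2 and Xins lie between -0.59 and -0.40, below the grey ones, on this scale and with all libraries. After rescaling the X2 median at 7dS is 0.012, and without replicates 1 and 3 of Xins at 1dS the Xins median at 30dS is 0.07.

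Transcripts restricted to other populations moved in X2 at the same time. The 200 transcripts highest in X1 alone summed to 0.54% to 0.89% of an X2 library at 1dS, 0.26% to 0.34% at 7dS and 0.41% to 0.45% at 30dS. Of the 196 tested, 134 fell in X2 at 7dS while 1 rose (6.79% and 9.56% of all transcripts). The 200 highest in Xins alone summed to 0.11% to 0.21% of an X2 library at 1dS, 0.27% to 0.46% at 7dS and 0.24% to 0.48% at 30dS. Of 165 tested, 61 rose at 7dS while 2 fell (9.56% and 6.79%). Both counts are on the deposited scale with all libraries. The cdk1 transcript was above 0 in every X2 library. In Xins the X1-alone transcripts summed to 0.08% to 0.19% at 1dS, 0.07% to 0.28% at 7dS and 0.06% to 0.23% at 30dS, without separation between times. The part of these shifts in the falls among the members was not tested.

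Several members rose strongly in both X1 and X2. For comp2875, a transcript without annotation, X1 values were 78.4, 70.2, 111 and 122 at 1dS, 293, 302, 304 and 345 at 7dS, and 199.5, 278, 252 and 218 at 30dS. In X2 they were 79.01, 79.1, 113 and 109.8 at 1dS, 208, 216, 262 and 219 at 7dS, and 135, 175, 188 and 159.9 at 30dS. Xins went the other way, with 13.95, 12.7, 8.75 and 10.6 at 1dS, 6.42, 6.58, 7.54 and 6.81 at 7dS, and 4.19, 5.87, 5.27 and 2.93 at 30dS. Each starved X1 and X2 library was above every 1dS library, and each starved Xins library was below. The log2 changes were 1.73 ± 0.21 at 7dS and 1.33 ± 0.21 at 30dS in X1 (SE, limma adjusted p = 0.0014 and 0.0053), 1.26 ± 0.20 and 0.79 ± 0.20 in X2 (0.0055 and 0.023) and -0.66 ± 0.20 and -1.18 ± 0.20 in Xins (0.11 and 0.0097). It was the one member called in opposite directions, higher in X1 and X2 and lower in Xins at 30dS. No call was lost by leaving out a single library, and after rescaling the Xins value at 30dS was -0.95 (adjusted p = 0.11).

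For comp11860, X1 values were 5.38, 8.85, 5.03 and 6.98 at 1dS, 18.1, 24.2, 18.6 and 26.9 at 7dS, and 25.5, 24.3, 23.99 and 22.7 at 30dS. X2 values were 9.64, 6.28, 5.602 and 8.59 at 1dS, 18.9, 23.2, 16.9 and 24.3 at 7dS, and 20.1, 22.7, 13.6 and 20.98 at 30dS. All starved libraries lay above the 1dS libraries of their population, and the fold was close to that of comp2875, with log2 changes of 1.61 ± 0.18 and 1.76 ± 0.18 in X1 (SE, limma adjusted p = 0.0014 and 0.00097) and 1.37 ± 0.22 and 1.26 ± 0.22 in X2 (0.0060 and 0.0048). In Xins its values stayed under 1 and it was not tested.

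A single member, comp1121, was called higher in all 3 populations at 30dS (0.540% of the transcripts tested in all 3), and none was at 7dS (0.249%). Its X1 values were 223, 345, 229.8 and 342 at 1dS, 795, 777, 594 and 716 at 7dS, and 845, 843, 831 and 687 at 30dS. Its X2 values were 164, 129, 214 and 192 at 1dS, 364, 430.5, 427 and 369.6 at 7dS, and 369, 431, 428 and 339 at 30dS. Its Xins values were 69.02, 47.6, 59.2 and 50.2 at 1dS, 89.6, 75.9, 101 and 72.1 at 7dS, and 104, 119, 165 and 90.3 at 30dS. The starved libraries lay above the 1dS libraries in each population, with log2 changes at 30dS of 1.51 ± 0.21 in X1, 1.18 ± 0.21 in X2 and 1.05 ± 0.21 in Xins (SE, limma adjusted p = 0.0029, 0.0049 and 0.022). At 7dS the changes were 1.36 ± 0.21 in X1 and 1.20 ± 0.21 in X2 (0.0042 and 0.0073), and that in Xins, 0.58 ± 0.21, did not pass the threshold (0.19).

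The timing differed for comp4528, which was called at 30dS and not at 7dS. X1 values were 14.1, 7.98, 9.68 and 20.6 at 1dS, 18.1, 24.3, 17.998 and 18.6 at 7dS, and 49.97, 51.5, 48.8 and 45.4 at 30dS. X2 values were 12.8, 11.8, 6.46 and 14.3 at 1dS, 14.1, 12.8, 12.7 and 11.6 at 7dS, and 24.4, 23.8, 26.7 and 23.7 at 30dS. The 30dS libraries stood above all libraries of the earlier times in both populations, while 7dS and 1dS overlapped. The log2 change at 30dS was 1.91 ± 0.24 in X1 and 1.11 ± 0.21 in X2 (SE, limma adjusted p = 0.0018 and 0.0074), against 0.63 ± 0.24 and 0.21 ± 0.21 at 7dS (0.13 and 0.57). The direct comparison of 30dS with 7dS was not past the threshold.

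Rises were also compared between X1 and X2. At 7dS, 8 members rose in both (2.5% of the transcripts tested in both), which is 8 of the 17 risers in X1 and 8 of the 9 in X2, and at 30dS 10 did (2.96%), or 10 of 20 in X1 and 10 of 10 in X2. Over all transcripts, 34.5% of the X1 risers and 21.6% of the X2 risers at 7dS were shared, and 50.8% and 19.5% at 30dS. Those shares count every riser of a population, but only 12376 transcripts were tested in both, against 13269 in X1 and 15003 in X2. All 200 members were tested in both and were chosen for like levels in X1 and X2. The shares are thus not like for like, and no excess among members is read from them. The 10 members shared at 30dS were comp900, comp1121, comp1609, comp2875, comp4528, comp6150, comp7352, comp7493, comp11860 and comp13637. Among them comp7493 had log2 changes at 30dS of 1.30 ± 0.19 in X1 and 1.05 ± 0.29 in X2 (SE, limma adjusted p = 0.0044 and 0.031). In Xins its values were 3.56, 5.63, 2.42 and 5.39 at 1dS, 3.45, 5.63, 2.61 and 4.03 at 7dS, and 3.64, 3.22, 3.48 and 3.82 at 30dS, which overlapped between times.

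Another rise was seen in X1, with comp2068 at 94.7, 69.3, 115 and 102 at 1dS, 355, 317, 348 and 222 at 7dS, and 259, 365, 386 and 196 at 30dS. X2 values were 147, 84.2, 180.2 and 83.8 at 1dS, 204, 165, 256 and 113 at 7dS, and 161, 201, 255 and 115 at 30dS, with overlap between times. Its X1 response was 1.70 ± 0.26 in log2 units after 7 days and 1.63 ± 0.26 after 30 (SE, limma adjusted p = 0.0041 and 0.0060), and in X2 0.59 ± 0.34 and 0.58 ± 0.34 (0.29 and 0.27). Likewise comp19710 ran in X1 at 10.9, 8.45, 15.6 and 7.52 at 1dS, 45.6, 27.9, 45.6 and 20.4 at 7dS, and 25.3, 36.1, 48.2 and 15.5 at 30dS. In X2 it ran at 27.7, 9.81, 15.3 and 6.65 at 1dS, 14.5, 7.22, 16.7 and 6.21 at 7dS, and 7.42, 11.3, 17.2 and 5.63 at 30dS. The 7dS libraries of X1 lay above those of 1dS and one at 30dS lay within the 1dS range, and in X2 the times overlapped. In X1 it changed by 1.60 ± 0.36 in log2 units after 7 days and by 1.41 ± 0.36 after 30 (0.022 and 0.043).

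Among the falls, comp1610 was lower at both times in all 3 populations. X1 values were 80.1, 411, 445 and 92.3 at 1dS, 47.6, 20.9, 24.6 and 38.2 at 7dS, and 27.7, 34.6, 56.04 and 43.1 at 30dS. X2 values were 113, 198, 439.6 and 58.3 at 1dS, 38.2, 12.3, 41.7 and 29.3 at 7dS, and 16.7, 21.4, 29.99 and 29.9 at 30dS. Xins values were 22.2, 3.35, 21.2 and 2.56 at 1dS, 1.15, 0.555, 1.45 and 1.36 at 7dS, and 0.633, 1.42, 0.844 and 0.335 at 30dS. No starved library reached the lowest 1dS library of its population, although the 1dS libraries themselves were far apart. The log2 changes were -2.59 ± 0.54 and -2.27 ± 0.54 in X1 (SE, limma adjusted p = 0.016 and 0.032), -2.44 ± 0.53 and -2.65 ± 0.53 in X2 (0.017 and 0.0086) and -2.17 ± 0.56 and -2.42 ± 0.56 in Xins (0.065 and 0.038). Without replicates 1 and 3 of Xins at 1dS the Xins changes were -0.91 (adjusted p = 0.25) and -1.16 (adjusted p = 0.10), and without replicates 1 and 3 of X2 at 1dS the X2 change at 7dS was -1.92 (adjusted p = 0.11).

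More even 1dS values were seen for comp2464. X1 values were 142, 174, 259 and 144 at 1dS, 95.6, 83.5, 84.3 and 58.4 at 7dS, and 96.02, 94.4, 86.9 and 63.5 at 30dS. X2 values were 225, 162, 381 and 130.2 at 1dS, 74.2, 83.1, 83.9 and 56.5 at 7dS, and 63.98, 84.5, 86.7 and 64.2 at 30dS. Xins values were 90.8, 40.9, 67.4 and 29.2 at 1dS, 14.5, 15.96, 19.1 and 13.9 at 7dS, and 12.99, 17.8, 21.7 and 15.8 at 30dS. The starved libraries were below the 1dS libraries in every population, with log2 changes at 30dS of -1.04 ± 0.24 in X1, -1.47 ± 0.30 in X2 and -1.58 ± 0.30 in Xins (SE, limma adjusted p = 0.029, 0.0091 and 0.017). No call of comp2464 was lost by leaving out a single library, and without replicates 1 and 3 of Xins at 1dS the Xins change at 7dS was -1.09 (adjusted p = 0.11).

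The member with the largest deficit, comp4808, fell in X1 and X2. X1 values were 554, 493, 1065 and 439 at 1dS, 313, 91.2, 209.8 and 64.1 at 7dS, and 74.3, 113, 165 and 40.8 at 30dS. X2 values were 276, 287, 629 and 175 at 1dS, 194, 110.3, 247 and 76.8 at 7dS, and 88.5, 108, 175 and 48.9 at 30dS. Starved X1 libraries were all below the 1dS libraries, and in X2 those of 30dS were below the 1dS libraries, the closest pair both rounding to 175. For the starved times the log2 values were -2.08 ± 0.53 and -2.77 ± 0.53 in X1 (SE, limma adjusted p = 0.037 and 0.014) and -1.10 ± 0.47 and -1.67 ± 0.47 in X2 (0.16 and 0.036). In Xins the changes were -0.99 ± 0.53 and -1.02 ± 0.53 and did not pass the threshold (0.38 and 0.36). Without replicates 1 and 3 of X2 at 1dS the X2 change at 30dS was -1.23 (adjusted p = 0.22).

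At 7dS, 7 members were called lower in all 3 populations (1.28% of the transcripts tested in all 3), namely comp986, comp1089, comp1610, comp2464, comp4240, comp6009 and HSPD1, and at 30dS 4 were (0.858%), namely comp986, comp1610, comp2464 and comp4504. Of these, comp1089 is listed under gene expression and comp4240 under transcription elongation. Both terms come from lists of transcripts that the study had called changed in these X1 samples, so their X1 falls are not independent evidence. Some of the 7dS calls hung on single libraries. Leaving out 1 library lost the X1 call of comp6009 in 8 of 8 fits and that of comp1089 in 6 of 8. The X2 call of HSPD1 and the Xins call of comp1610 were each lost in 6 of 8, and the X2 call of comp4240 in 1 of 8. X1 and X2 as a pair shared 13 falls at 7dS (3.44%), out of 18 in X1 and 34 in X2, and 9 at 30dS (2.68%), out of 10 and 39. Over all transcripts 46.4% of the X1 falls and 41.8% of the X2 falls at 7dS were shared, and 57.4% and 27.0% at 30dS. As for the rises, those shares include transcripts tested in 1 population only, so the members are not compared with them like for like. For comp6009 the log2 change at 30dS was -1.36 ± 0.21 in X2 and -1.45 ± 0.25 in Xins (SE, limma adjusted p = 0.0032 and 0.011), and in X1 -0.46 ± 0.18 (0.16). For comp4240 the 3 changes at 7dS were -0.91 ± 0.20 in X1, -0.70 ± 0.20 in X2 and -0.75 ± 0.14 in Xins (0.022, 0.049 and 0.022), and after rescaling they were -0.70 (adjusted p = 0.28), -0.29 (adjusted p = 0.68) and -0.36 (adjusted p = 0.62).

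HSPD1 fell in all 3 populations at 7dS. X1 values were 2261, 2936, 2100.2 and 2465 at 1dS, 1219, 1485, 1184 and 1483 at 7dS, and 2103, 1822, 1842 and 1775 at 30dS. X2 values were 1163, 1881, 1354 and 2068 at 1dS, 724, 1035, 675 and 1123 at 7dS, and 1159, 1147, 665 and 1083 at 30dS. Xins values were 244, 339, 295 and 346 at 1dS, 109, 139, 98.5 and 151 at 7dS, and 140.4, 162, 123 and 187 at 30dS. The 7dS libraries were below the 1dS libraries in every population, and at 30dS this held in Xins and, by a few units, in X2, while in X1 the ranges met. The log2 changes at 7dS were -0.86 ± 0.19 in X1, -0.86 ± 0.29 in X2 and -1.30 ± 0.21 in Xins (SE, limma adjusted p = 0.023, 0.084 and 0.013), and at 30dS only the change in Xins, -1.0 ± 0.21, passed (0.025). After rescaling none of the 4 calls passed, with values at 7dS of -0.65 (adjusted p = 0.28) in X1, -0.44 (adjusted p = 0.59) in X2 and -0.88 (adjusted p = 0.33) in Xins.

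The other mitochondrial chaperone, HSPA9, was not called in any population. Its X1 values were 1046, 900.0, 628 and 994 at 1dS, 536, 871, 644 and 931 at 7dS, and 1041, 582, 585 and 1077 at 30dS, and its Xins values were 98.2, 192, 103 and 201 at 1dS, 63.9, 142, 61.7 and 142 at 7dS, and 69.03, 96.7, 53.4 and 159 at 30dS. Libraries of different times overlapped, and its log2 changes ran from -0.69 to -0.16 over the 6 comparisons with 1dS. SARS had X1 values of 90.8, 206, 94.9 and 98.6 at 1dS, 49.3, 57.7, 39.4 and 63.02 at 7dS, and 72.3, 59.2, 52.1 and 58.5 at 30dS. In Xins it had 20.4, 30.02, 24.9 and 26.9 at 1dS, 11.3, 14.99, 7.67 and 14.9 at 7dS, and 10.1, 12.5, 8.07 and 15.2 at 30dS. The starved libraries lay below the 1dS libraries in both. Its log2 changes were -1.14 ± 0.26 and -0.92 ± 0.26 in X1 (SE, limma adjusted p = 0.024 and 0.063) and -1.04 ± 0.24 and -1.11 ± 0.24 in Xins (0.044 and 0.027), and in X2 the changes -0.77 ± 0.31 and -0.76 ± 0.31 did not pass (0.13 and 0.12). After rescaling the X1 changes of SARS were -0.93 (adjusted p = 0.18) and -0.79 (adjusted p = 0.31). In the tRNA aminoacylation list, 17 of 31 tested transcripts fell in X1 at 7dS and 13 at 30dS, 17 and 17 of 32 in X2, and 10 and 9 of 32 in Xins, and 0 rose. That list was chosen by the study on these samples, so its direction is not independent evidence.

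Members known by a term alone went both ways. Their terms come from lists of transcripts that the study had called changed. For comp6020, comp2503 and comp1052 these were changes in the X1 samples used here, so their X1 changes are not independent evidence. For comp1943 and comp1682 they were changes after cct3A RNAi. Under protein autophosphorylation, comp6020 had X1 values of 19.5, 22.5, 15.99 and 20.7 at 1dS, 29.1, 48.8, 34.8 and 50.8 at 7dS, and 31.4, 29.9, 27.2 and 30.4 at 30dS, with a log2 change of 0.99 ± 0.19 at 7dS (SE, limma adjusted p = 0.012) and all 7dS libraries above those of 1dS. Under intracellular signal transduction, comp2503 changed by 0.82 ± 0.24 and 0.81 ± 0.24 in X1 (0.061 and 0.078). Under amino acid metabolism, comp1943 had X2 values of 93.6, 126, 167 and 65.1 at 1dS, 42.1, 31.7, 36.3 and 25.4 at 7dS, and 31.8, 45.2, 41.3 and 24.6 at 30dS, and all starved libraries lay below. Its log2 changes were -1.65 ± 0.29 and -1.59 ± 0.29 (0.0083 and 0.0062). The remaining comp1052, listed under amide and protein metabolism, and comp1682, listed under breakdown of nitrogen compounds, changed in X2 at 30dS by -1.32 ± 0.30 and -1.53 ± 0.51 (0.016 and 0.065).

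Other large falls were called in fewer populations. In X2, comp7176 ran at 65.3, 85.6, 106 and 41.03 at 1dS, 32.4, 18.4, 30.97 and 19.7 at 7dS, and 18.9, 22.6, 22.8 and 16.8 at 30dS, and all starved libraries were below the lowest 1dS library. The log2 changes were -1.48 ± 0.29 and -1.75 ± 0.29 (SE, limma adjusted p = 0.011 and 0.0036). In Xins, comp421 ran at 1467, 743, 1358 and 572 at 1dS, 261, 126, 347 and 117 at 7dS, and 285, 221, 564 and 160.4 at 30dS, again without overlap, with log2 changes of -2.32 ± 0.48 and -1.80 ± 0.48 (0.030 and 0.062). Without replicates 1 and 3 of Xins at 1dS these were -1.76 (adjusted p = 0.24) and -1.24 (adjusted p = 0.28). For comp899 in X1 the values were 188, 570.3, 468 and 246 at 1dS, 20.4, 121, 82.5 and 152 at 7dS, and 36.5, 197, 139 and 215 at 30dS, where the first starved library of each time was far below the others. Its change at 7dS was -2.14 ± 0.67 in X1 and -1.41 ± 0.22 in X2 (0.073 and 0.0055), and comp920 changed by -2.03 ± 0.68 in X1 and -1.07 ± 0.31 in X2 (0.088 and 0.052). Leaving out 1 library lost the X1 call in 5 of 8 fits for comp899 and in 6 of 8 for comp920. The X2 call was lost in 0 of 8 and 3 of 8. In Xins at 7dS comp3206 changed by -1.65 ± 0.43 (0.065), and without replicates 1 and 3 of Xins at 1dS by -0.94 (adjusted p = 0.38).

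**Figure D4:**
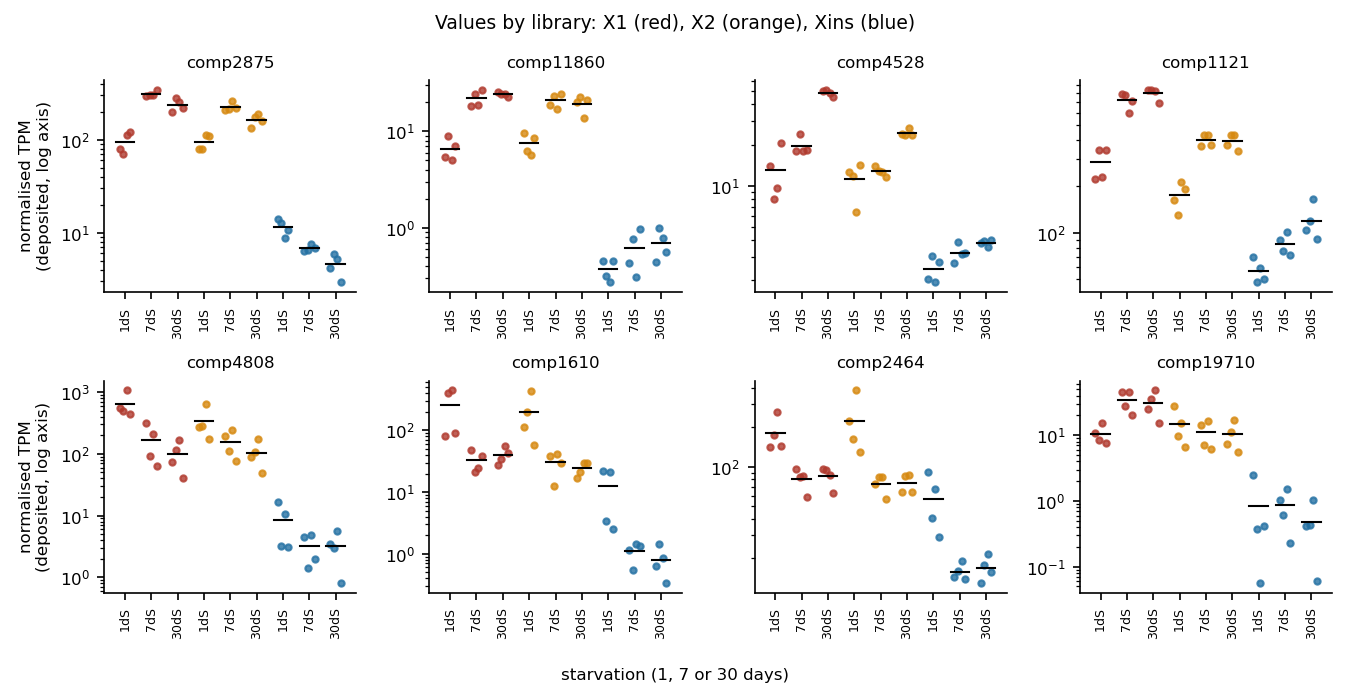
Deposited normalised TPM (y axis, log scale) of 8 members in each of the 36 libraries, with 1 point per library and the group mean as a bar, by starvation time (x axis) in X1 (red), X2 (orange) and Xins (blue). Levels of different populations come from tables normalised separately, so times are to be compared within a colour. For comp2875 the X1 mean goes from 95.5 at 1dS to 311 at 7dS, while the Xins mean goes from 11.5 to 6.84.

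The abundant members gave few calls in X1 and X2 and only falls in Xins. Of the 51 members of 1000 TPM and over, 0 rose and 1 fell in X1 at 7dS (6.77% and 6.92% of all transcripts). At 30dS 0 rose and 0 fell there (5.43% and 4.36%). In X2 0 rose and 2 fell at 7dS (9.56% and 6.79%), and 0 and 1 at 30dS (12.5% and 8.19%). In Xins 0 rose and 8 fell at 7dS (2.05% and 3.06%), and 0 and 4 at 30dS (3.31% and 3.85%). Their median log2 change in Xins was -0.81 at 7dS, where 50 of 51 were below 0, and between 7dS and 30dS it was 0.39, with 51 of 51 above 0 and none called. Within a group the highest of the 4 libraries was, for the median member of this class, between 1.82 and 2.89 times the lowest on the deposited scale and between 1.59 and 1.96 times after rescaling. The spread between libraries was thus large beside these changes, as for comp140 in Xins, at 7839.8, 865, 4450.3 and 862 at 1dS, 1581, 644, 2343 and 491 at 7dS, and 1567, 1815, 3826 and 559 at 30dS.

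Whether the response to starvation differed between populations was tested with an interaction term over all 36 libraries on TPM. Between X1 and X2, the change was more positive in X1 for 2 members and more negative for 1 at 7dS (1.5% of all transcripts called, 0.235% and 1.27% by direction) and for 1 and 0 at 30dS (2.72%, 0.170% and 2.55%). Between X1 and Xins the counts were 3 and 0 at 7dS (1.66%, 0.517% and 1.14%) and 5 and 1 at 30dS (1.91%, 0.552% and 1.36%). Between X2 and Xins they were 3 and 0 at 7dS (2.30%, 1.43% and 0.869%) and 4 and 2 at 30dS (3.46%, 2.55% and 0.904%). In all, 10 members were called in 22 differences. More positive responses in X1 than in Xins made up 1.5% and 2.5% of the members at 7dS and 30dS, above the background of 0.517% and 0.552%, and more negative responses in X1 than in X2 made up 0.5% and 0% of them, below 1.27% and 2.55%. These counts rested on few members and on the fit. At 7dS and 30dS same-numbered libraries of the 3 populations deviated together, and at 1dS they did not in every case. With the replicate number within each time as a block, the change was more positive in X1 than in Xins for 53 members and more negative for 6 at 7dS (2.85% and 8.53% of all transcripts) and for 37 and 7 at 30dS (3.03% and 8.03%). Between X2 and Xins the block gave 30 and 6 (6.32% and 4.89%), then 22 and 18 (11.9% and 5.32%), and between X1 and X2 8 and 3 (1.68% and 8.33%), then 6 and 2 (0.916% and 10%). All 22 differences called without the block were also called with it.

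The largest differences belonged to comp2875. On the TPM scale its X1 values were 84.7, 59.6, 76.96 and 139.7 at 1dS, 239, 365, 293 and 474 at 7dS, and 219, 247, 196 and 303 at 30dS, and its Xins values were 8.55, 13.9, 6.12 and 11.96 at 1dS, 6.18, 8.54, 6.52 and 10.7 at 7dS, and 4.17, 6.296, 3.61 and 4.47 at 30dS. Every starved X1 library lay above the 1dS libraries, while in Xins on this scale the starved and 1dS ranges overlapped. The X1 response exceeded the Xins response by 2.22 ± 0.39 (SE, limma adjusted p = 0.0049) at 7dS and 2.41 ± 0.39 (SE, limma adjusted p = 0.0015) at 30dS on the log2 scale, and the X2 response exceeded it by 1.95 ± 0.39 (SE, limma adjusted p = 0.0051) and 2.20 ± 0.39 (SE, limma adjusted p = 0.00084). None of the 4 calls was lost by leaving out any single library. Between X1 and X2 its difference was not called.

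The difference between X1 and X2 was led by comp19710, whose TPM values in X2 were 20.9, 9.05, 7.92 and 8.15 at 1dS, 14.6, 8.62, 13.9 and 8.81 at 7dS, and 9.82, 11.3, 13.99 and 8.35 at 30dS, with replicate 1 at 1dS above the other 3, and in X1 11.8, 7.18, 10.8 and 8.61 at 1dS, 37.2, 33.7, 43.98 and 28.03 at 7dS, and 27.8, 31.98, 37.5 and 21.6 at 30dS. Its X1 response exceeded that of X2 by 1.73 ± 0.39 (SE, limma adjusted p = 0.024) at 7dS and 1.52 ± 0.39 (SE, limma adjusted p = 0.041) at 30dS. Without replicates 1 and 3 of X2 at 1dS no member was called between X1 and X2 at either time, and over all transcripts 50 and 102 were. The X1 response of comp2068 exceeded that of X2 at 7dS by 0.90 ± 0.25 (SE, limma adjusted p = 0.084) and that of Xins by 1.26 ± 0.25 (SE, limma adjusted p = 0.011). In comp11501 the X1 response at 7dS was below that of X2, by -1.30 ± 0.37 (SE, limma adjusted p = 0.089). With a fall in X1 that exceeded that in Xins, comp4808 differed at 30dS by -1.82 ± 0.48 (SE, limma adjusted p = 0.056). Leaving out 1 library lost the call of comp2068 between X1 and X2 in 9 of 16 fits. That of comp11501 was lost in 12 of 16 and that of comp4808 in 7 of 16. The other members called, comp691, comp1983, comp2810, comp7021 and comp7176, differed between Xins and one or both of X1 and X2 by between -0.96 and 0.95 on the log2 scale.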

How the data were processed

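RNA of sorted X1, X2 and Xins cells was measured in 36 libraries, 4 for each population and starvation time. The deposited values are normalised TPM signal values per transcript of the Dresden transcriptome, which the authors made with kallisto (0.43.0) and Sleuth, 1 table per population. They are not counts, so the read depth per library is unknown here and no counting interval is given. For levels and for differences between populations every library was rescaled to 1000000. Changes with starvation were fitted within a population on log2(deposited value + 1) with limma (3.58.1, R 4.3.3) with its trend option, for transcripts with a mean of at least 1, and called at a Benjamini-Hochberg adjusted p below 0.1, as in the study. Fold changes of low transcripts are understated by the pseudocount of 1. On simulated data, the fits of X1 at 7dS, X2 at 30dS and Xins at 30dS found 35% to 48% of log2 changes of 1. They found 81% to 90% of log2 changes of 2. The fit of differences between X1 and X2 at 30dS found 24% and 67%. Of its calls 14.2% were false, at the threshold of 0.1. Alternatives were other scaling, a pseudocount of 0.5, no filter, a replicate block, only the times compared, and leaving out libraries. The members, lists and named transcripts were chosen with earlier results of these data known. Named were the members with the largest deficit, highest levels, highest and lowest Xins means, an annotation, the largest changes without overlap, the largest differences in response, and those at the edge of the choice. Names and terms came from the supplementary lists of the study, with version 6 identifiers matched to the same numbers. No transcript sequences were used here.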

Additional observations from a re-analysis of the deposited data

Results flagged for a closer look

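Differences in response between populations passed the threshold in 22 cases over 10 members, each a difference of log2 changes on TPM with limma's adjusted p. On the values as deposited 13 of the 22 no longer passed, and those that did were the 4 of comp2875, the 2 of comp11501, comp19710 between X1 and X2 at 7dS, comp2810 between X1 and Xins, and comp7176. Without replicates 1 and 3 of X2 at 1dS, 10 of the 13 that involve X2 were lost, and those of comp2875 and comp7176 were kept. Without replicates 1 and 3 of Xins at 1dS, 7 of the 18 that involve Xins were lost, among them every one of comp691. In comp2875, the response in X1 minus that in Xins was 2.22 ± 0.39 (SE, limma adjusted p = 0.0049) at 7dS and 2.41 ± 0.39 (SE, limma adjusted p = 0.0015) at 30dS, and the response in X2 minus that in Xins was 1.95 ± 0.39 (SE, limma adjusted p = 0.0051) and 2.20 ± 0.39 (SE, limma adjusted p = 0.00084). No single library decided these. For comp19710, X1 minus X2 was 1.73 ± 0.39 (SE, limma adjusted p = 0.024) and 1.52 ± 0.39 (SE, limma adjusted p = 0.041), and X1 minus Xins was 1.53 ± 0.39 (SE, limma adjusted p = 0.055) and 1.65 ± 0.39 (SE, limma adjusted p = 0.030). For comp2068, X1 minus X2 was 0.90 ± 0.25 (SE, limma adjusted p = 0.084) at 7dS, and X1 minus Xins was 1.26 ± 0.25 (SE, limma adjusted p = 0.011) and 0.94 ± 0.25 (SE, limma adjusted p = 0.056).

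For comp11501 at 7dS, X1 minus X2 was -1.30 ± 0.37 (SE, limma adjusted p = 0.089) and X2 minus Xins was 1.27 ± 0.37 (SE, limma adjusted p = 0.080). For comp4808 at 30dS, X1 minus Xins was -1.82 ± 0.48 (SE, limma adjusted p = 0.056). At 30dS, comp2810 differed by 0.90 ± 0.26 (SE, limma adjusted p = 0.091) between X1 and Xins and 0.95 ± 0.26 (SE, limma adjusted p = 0.048) between X2 and Xins. For comp691, X1 minus Xins was 0.89 ± 0.24 (SE, limma adjusted p = 0.056) at 30dS, and X2 minus Xins was 0.80 ± 0.24 (SE, limma adjusted p = 0.088) at 7dS and 0.75 ± 0.24 (SE, limma adjusted p = 0.098) at 30dS. Between X2 and Xins at 30dS, comp1983 differed by 0.84 ± 0.26 (SE, limma adjusted p = 0.092), comp7021 by -0.93 ± 0.26 (SE, limma adjusted p = 0.054) and comp7176 by -0.96 ± 0.28 (SE, limma adjusted p = 0.063). The call for comp1983 was lost in 14 of 16 fits that left out 1 library. Both calls of comp11501 and that of comp2810 between X1 and Xins were lost in 12 of 16. For comp691 each call between X2 and Xins was lost in 11 of 16, and that between X1 and Xins in 7. Those of comp2068 were lost in 9 of 16 between X1 and X2, and in 7 between X1 and Xins at 30dS. The call of comp4808 was lost in 7 of 16, and those of comp7021 and comp7176 in 5 each. Each of the other calls was lost in at most 4.

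One library stood far from the other 3 of its group in 8 of the 171 groups examined, over 18 members and the summed share, and chance alone marks about 1 in 20 groups. In TPM, comp1610 was 44.3 in X2 30dS replicate 4 against 21.5 to 24.4 in the others, and 1.52 in Xins 30dS replicate 2 against 0.511 to 0.629. The value of comp11501 in Xins 7dS replicate 4 was 1.11, against 0.555 to 0.638. In Xins 7dS replicate 3, comp1983 was 63.1 against 47.1 to 49.1. The value of comp19710 in X2 1dS replicate 1 was 20.9, against 7.92 to 9.05. In X1 7dS replicate 1, comp691 was 782 against 948 to 979.97, and in Xins 30dS replicate 3 it was 214 against 151 to 159. Finally, comp1121 was 235 in X2 1dS replicate 4 against 111 to 124.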

How the results depend on the processing

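With 4 libraries a group, changes smaller than the spread between libraries could not be shown, and most members carry no annotation. The number of members called moved most with the replicate number as a block. Nothing in the sources ties equal numbers to shared animals. The correlation of same-numbered deviations between populations ran from 0.47 to 0.85 at 7dS, from 0.19 to 0.84 at 30dS and from -0.24 to 0.71 at 1dS, so that equal numbers paired the populations at the 2 later times and not at 1dS. Each number matched itself best in all 3 pairs of populations at 7dS, in 2 at 30dS and in 0 at 1dS. Between times within a population it ran from -0.46 to 0.91, and in Xins between 1dS and 7dS from 0.45 to 0.71. With the replicate block 53 and 47 members were called in X1 at 7dS and 30dS, 96 and 112 in X2, 102 and 71 in Xins, and 1 in Xins between 7dS and 30dS, and the differences in response counted 11 and 8 between X1 and X2, 59 and 44 between X1 and Xins, and 36 and 40 between X2 and Xins.

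Fitting only the 2 times compared gave 17 members in X1 at 30dS (3.48% of all transcripts higher and 2.74% lower). The same fit gave 21 in X2 at 7dS (3.80% and 3.22%), and in Xins 7 at 7dS (0.186% and 0.751%) and 13 at 30dS (1.73% and 2.26%). Rescaled values gave 11 and 13 in Xins, and medians of 0.012 and -0.023 in X2. Values as deposited gave 0 differences between X1 and X2 at 30dS (0.610% of all transcripts more positive and 3.08% more negative), where limma called 1 on TPM. They gave 10 and 11 between X1 and Xins (1.45% and 1.03%, then 2.12% and 1.54%). Between X2 and Xins they gave 11 and 11 (5.16% and 1.81%, then 6.46% and 1.89%). Of the 22 differences called on TPM, 13 were lost there. No filter on low values left 1 difference between X1 and X2 at 7dS (0.156% and 0.746%). Choosing members less than 0.5 apart kept 114 of the 200. Choosing on the 1dS, 7dS or 30dS libraries alone kept 117, 161 and 154. Without the 10 most abundant members the summed share was 19.3%, 16.9% and 4.20% in X1, X2 and Xins.

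Chosen after seeing the data, leaving out replicates 1 and 3 of X2 at 1dS together gave 9 and 19 members in X2, 0 and 0 differences between X1 and X2, and 1 and 2 between X2 and Xins. Leaving out replicates 1 and 3 of Xins at 1dS gave 6 and 12 members in Xins, and 14 differences between X2 and Xins at 30dS.

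Leaving out 1 library at a time gave 19 to 37 members in X1 at 7dS (22 without 1dS replicate 3, 19 without 7dS replicate 2) and 17 to 26 at 30dS (19 and 17 without 30dS replicates 1 and 2). In X2 it gave 26 to 70 at 7dS (26 and 70 without 1dS replicates 1 and 4, 27 without 7dS replicate 1 or 4) and 27 to 75 at 30dS (75 without 1dS replicate 4, 27 and 28 without 30dS replicates 1 and 4). In Xins it gave 13 to 29 at 7dS, with 14, 19 and 16 without 1dS replicates 1, 2 and 3 and 13, 18, 18 and 17 without the 7dS replicates 1 to 4, and 12 to 27 at 30dS, with 13, 15 and 15 without 1dS replicates 1, 2 and 3 and 12 and 14 without 30dS replicates 1 and 2. No member was called between 7dS and 30dS in any of them. Differences in response ranged from 1 to 5 and 0 to 2 between X1 and X2 at 7dS and 30dS, from 2 to 9 and 2 to 8 between X1 and Xins, and from 1 to 7 and 2 to 14 between X2 and Xins, the highest counts without X2 1dS replicate 4 or X1 1dS replicate 4. Choosing the members without 1 replicate number, which drops that library from all 9 groups at once, kept 180 to 189 of the 200. No named change that passed the threshold reversed under these alternatives, but the median log2 change of the members turned positive after rescaling in X1, at 0.09 and 0.08, and in X2 at 7dS. It also turned positive in X1 at 30dS without 1dS replicate 3, at 0.07, or 30dS replicate 4, at 0.09, and was 0.00069 without 1dS replicate 2, and in Xins at 30dS without 1dS replicates 1 and 3, at 0.07.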
